A study of Rattus norvegicus with 20 samples.

Results

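The genes described here encode subunits and a few assembly factors of the mitochondrial respiratory chain and the ATP synthase. They were chosen by symbol: every annotated gene whose symbol begins with Nduf, Uqcr, Atp5, Cox4, Cox5, Cox6, Cox7 or Cox8, together with Sdha, Sdhb, Sdhc, Sdhd and Cyc1. This gave 87 genes of the 13462 that had a signal on the array, and none of the 87 lacked a value. They were read by 95 probe sets with values, and 2 further probe sets, second ones for Atp5me and Ndufa9, carried no value on any array. Where a gene had several probe sets, which was so for 7 genes, the one with the highest mean over the 20 arrays stood for it. The 87 genes comprised 40 of complex I (6 core subunits, 28 accessory subunits and 6 assembly factors), 4 of complex II, 8 of complex III, 19 of complex IV and 16 of complex V. The 19 of complex IV were counted as 11 standing subunits and 8 tissue-restricted forms, paralogs or pseudogenes.

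The study asked how soybean in the diet, and the isoflavone content of the soybean, affect messenger RNAs in rat liver. All animals were male Sprague-Dawley rats that arrived at 4 weeks of age, had 5 days on a commercial diet to adapt, and were then kept on 1 of 4 test diets for 21 days. The casein diet held 200 g/kg casein. In the conventional soybean diet the protein came from casein and Fukuyutaka, a conventional cultivar, in equal parts. The high-isoflavone diets replaced Fukuyutaka by Yukipirika, a high-isoflavone soybean, at 3 parts casein to 1 part soybean (called 3:1 here) or in equal parts (1:1). There were 7, 7, 7 and 8 rats on the casein, conventional, 3:1 and 1:1 diets, of which 5 per diet, taken for an average food intake, went onto arrays. Each array was thus 1 rat, and results hold for rats selected in this way. Titles were matched to the diets by their wording, and no isoflavone content of a diet is given in the sources used here.

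Complex I takes electrons from NADH and complex II takes them from succinate. Complex III passes them to cytochrome c and complex IV hands them to oxygen, and the proton gradient built on the way drives complex V, the ATP synthase. The core subunits carry the flavins, iron-sulfur clusters, hemes or nucleotide sites. Complexes I, III, IV and V also have small accessory subunits, many of which support assembly and stability, whereas complex II consists of Sdha, Sdhb, Sdhc and Sdhd alone. Hepatocytes are rich in mitochondria, and their respiratory chain powers gluconeogenesis and the urea cycle. All genes described here lie in the nucleus, since the rule covers no subunit encoded by mitochondrial DNA.

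Signals are given on the log2 scale, on which a difference of 1 is a 2-fold difference, and signals of different probe sets are not set against each other. The array medians lay between 2.43 and 2.57 in all 20 rats, and array pairs correlated at 0.926 to 0.967. The 9 measured hepatocyte markers, such as the albumin gene Alb, had diet means between 8.43 and 10.3, far above these medians. Casein replicate 5 and 3:1 replicate 1 had a higher signal floor than the other arrays. The ratio of the 3′ to the 5′ signal of beta-actin reads RNA integrity. It averaged 1.45 ± 0.107 in casein rats, 1.60 ± 0.202 in conventional-soybean rats, 1.61 ± 0.304 in 3:1 rats and 1.43 ± 0.397 in 1:1 rats (log2, mean ± SD, n = 5 each). Probe sets called higher and lower numbered 281 and 172 for conventional soybean against casein. These became 194 and 354 after quantile normalization, and 158 and 472 after centring and scaling each array. For 1:1 against casein the split was 317 higher and 296 lower, against 235 and 374 and 180 and 471 under the same scalings. In tissue RNA, fewer cells of a type and less RNA per cell cannot be told apart.

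On the 1:1 high-isoflavone diet 8 of the 87 genes fell relative to casein, and none rose. They were Cox7b, Cox7b2, Cox6c, Cox7c, Ndufa4 and Cox6c-ps1 of complex IV, Atp5mk of complex V and Ndufa5 of complex I, with decreases between 1.40-fold and 2.41-fold. The share of members called lower was 9.20%, while 1.2% of all genes were called lower and 1.33% higher in this comparison (limma, adjusted p under 0.05). With the 3:1 diet 2 members fell, Cox7b and Cox7b2, which is 2.30% of members where 0.0297% of all genes were called lower. Whether the Cox7b2 probe set also reads Cox7b was not tested, so these may not be separate readings. On conventional soybean no member was called in limma at the same threshold, where 0.787% of all genes were called lower and 1.08% higher. At an unadjusted p under 0.05, 5 members (5.75%) were lower and 1 (1.15%) was higher there, beside 6.21% of all genes lower and 11% higher. At the same level 20 members (23.0%) were lower and 1 (1.15%) was higher on the 1:1 diet, beside 6.96% and 10.6% of all genes. For the 3:1 diet 15 members (17.2%) were lower and 1 (1.15%) higher, beside 3.23% and 5.28% of all genes. The comparisons with casein share the 5 casein arrays, so they are set side by side and not counted as separate evidence.

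**Figure D1:**
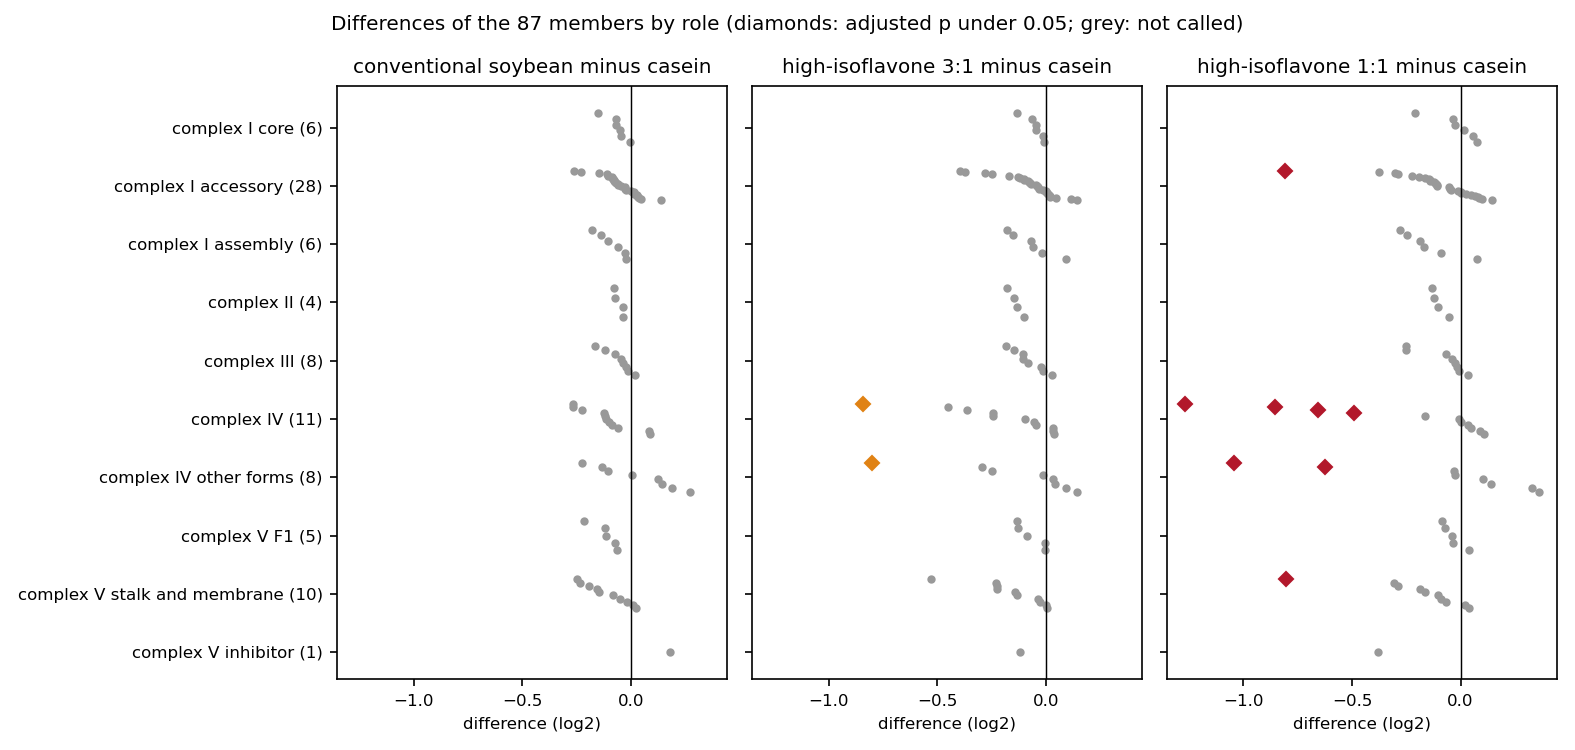
Differences from casein on the log2 scale (x axis) of the 87 genes, 1 point per gene, by role (y axis, number of genes in brackets), for each of the soybean diets. Diamonds have an adjusted p under 0.05 in limma. The 8 diamonds for the 1:1 diet lie between -1.27 and -0.49, and 6 of them are complex IV genes.

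For the whole group the shift of the median was small. The median difference of the 87 genes from casein was -0.07 on each of the soybean diets, beside medians over all genes of 0.04 on conventional soybean, 0.01 on the 3:1 diet and 0.03 on the 1:1 diet. Differences below 0 were seen for 66 members on conventional soybean, 66 on the 3:1 diet and 61 on the 1:1 diet. Of all 13462 genes, 5590, 6217 and 5832 were below 0 on these diets in the same order. Centring and scaling each array moved the members' median to -0.20 on conventional soybean and -0.21 on the 1:1 diet, with the same sign. Of the 79 members called in no comparison, 65 lay within 0.2 of casein on the 1:1 diet, 71 on the 3:1 diet and 74 on conventional soybean.

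The 250 bases before the annotated starts of Cox7b, Cox7b2, Atp5mk and Ndufa5 are shown as given by RefSeq for the rat build GRCr8. They were picked from the genes that fell, and control shared between them was not tested. The table held a promoter for 78 of the 87 genes and for 6 of the 8 that fell. Capitals mark a match to a motif searched on both strands, and all sequences run 5′ to 3′ towards the start of the gene.
Cox7b, chrX:75148786-75149035, plus strand: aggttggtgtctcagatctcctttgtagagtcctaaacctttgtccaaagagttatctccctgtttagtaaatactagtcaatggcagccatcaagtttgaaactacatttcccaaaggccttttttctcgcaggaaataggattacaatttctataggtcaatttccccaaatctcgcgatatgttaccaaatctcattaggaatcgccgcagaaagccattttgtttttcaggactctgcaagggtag
Cox7b2, chr14:37046831-37047080, plus strand: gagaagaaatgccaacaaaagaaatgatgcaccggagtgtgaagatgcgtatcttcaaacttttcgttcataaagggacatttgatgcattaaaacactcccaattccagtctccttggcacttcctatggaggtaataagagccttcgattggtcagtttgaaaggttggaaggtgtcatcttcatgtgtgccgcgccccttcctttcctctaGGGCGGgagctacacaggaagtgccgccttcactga
Atp5mk, chr1:255922048-255922297, minus strand: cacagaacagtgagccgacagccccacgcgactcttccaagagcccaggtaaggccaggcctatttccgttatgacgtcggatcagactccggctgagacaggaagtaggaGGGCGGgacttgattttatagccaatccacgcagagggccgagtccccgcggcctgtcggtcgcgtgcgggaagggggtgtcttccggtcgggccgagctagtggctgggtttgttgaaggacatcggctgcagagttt
Ndufa5, chr4:53971236-53971485, minus strand: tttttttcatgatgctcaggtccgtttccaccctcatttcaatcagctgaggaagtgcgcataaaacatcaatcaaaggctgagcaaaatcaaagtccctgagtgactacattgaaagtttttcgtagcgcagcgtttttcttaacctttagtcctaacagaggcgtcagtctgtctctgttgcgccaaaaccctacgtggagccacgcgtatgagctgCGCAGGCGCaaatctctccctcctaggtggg

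Motifs of factors known for nuclear genes of the respiratory chain were searched in the same window: NRF1 (GCGCNTGCG), ETS factors (CCGGAAGT), ERR (AAGGTCA) and SP1 (GGGCGG). The NRF1 motif was found in 16 of the 78 member promoters (20.5%) and in 5.03% of the 33469 promoters in the table. That set is wider than the 13462 genes measured on the array, and was not matched to the members in signal. The ETS motif was in 8 (10.3%, against 3.10%), the ERR motif in 6 (7.69%, against 3.99%) and the SP1 motif in 29 (37.2%, against 30.5%). Of the 6 promoters of genes that fell, 1 held the NRF1 motif, that of Ndufa5, 31 to 23 bases before the start. None of the 6 held the ETS or the ERR motif. The SP1 motif was in 2 of them, 139 to 134 bases before the start of Atp5mk and 36 to 31 bases before that of Cox7b2. The window of Cox7b held none of these letters on either strand. These matches describe the sequence and say nothing on binding.

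Complex IV carried most of the decreases. On the 1:1 diet 4 of its 11 standing subunits fell relative to casein, and so did 2 of its 8 other forms. Cox7b encodes a small membrane subunit needed for the assembly of complex IV. Its signals on casein were 7.77, 7.56, 7.55, 7.53 and 7.44, and on conventional soybean 7.53, 7.35, 7.32, 7.40 and 7.12 (replicates 1 to 5). The 3:1 rats gave 7.20, 6.99, 6.70, 6.43 and 6.33, and the 1:1 rats 6.24, 5.86, 6.46, 6.50 and 6.43. Both high-isoflavone groups lay wholly below casein, the 1:1 rats also lay below all conventional-soybean rats, and the 3:1 rats overlapped both neighbours. Cox7b fell by 1.27 (2.41-fold) on the 1:1 diet relative to casein, with an SE of 0.143 and an adjusted p of 0.000117. Relative to casein it fell by 0.84 (1.79-fold) on the 3:1 diet, with an adjusted p of 0.0367. That call ended when any of 8 arrays was left out: casein replicate 2, 3, 4 or 5 (adjusted p 0.0955, 0.0546, 0.0932 and 0.101), conventional replicate 2 (0.0519), or 3:1 replicate 3, 4 or 5 (0.0758, 0.1 and 0.0867). It also ended with centring and scaling (0.0657), with no trend in the variance (0.0741) and with only the arrays compared (0.102). On conventional soybean the difference of Cox7b was -0.22 (adjusted p = 0.438).

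Cox7b2 is the paralog of Cox7b that is known mainly from testis. Its probe set read 5.17, 5.43, 5.38, 5.40 and 5.20 on casein and 5.19, 5.09, 5.14, 5.31 and 5.19 on conventional soybean. On the 3:1 diet it read 4.69, 4.76, 4.48, 4.42 and 4.22, and on the 1:1 diet 4.28, 4.15, 4.41, 4.16 and 4.37. All 10 rats on high-isoflavone soybean therefore lay below all 10 rats on the other diets. Cox7b2 fell by 1.04 (2.06-fold, SE 0.0977, adjusted p = 1.53e-05) on the 1:1 diet and by 0.80 (1.74-fold, adjusted p = 0.00143) on the 3:1 diet relative to casein. Both calls held in all 29 alternative settings. The difference on conventional soybean was -0.13 (adjusted p = 0.51). Probe sequences were not used here, so whether this probe set also reads Cox7b or other transcripts was not tested.

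Cox6c, another small membrane subunit of complex IV, gave 7.95, 8.01, 7.95, 7.92 and 7.87 on casein and 7.63, 7.70, 7.71, 7.81 and 7.52 on conventional soybean. The values were 7.69, 7.79, 7.49, 7.30 and 7.21 on the 3:1 diet and 6.88, 6.87, 7.32, 7.05 and 7.32 on the 1:1 diet. Every soybean-fed rat lay below every casein-fed rat, and every 1:1 rat lay below every conventional-soybean rat. Cox6c fell by 0.85 (1.81-fold, SE 0.108, adjusted p = 0.000207) on the 1:1 diet. The differences on the 3:1 diet (-0.45, adjusted p = 0.159) and on conventional soybean (-0.26, adjusted p = 0.212) did not pass the test. The related pseudogene Cox6c-ps1 read 2.74, 2.66, 2.72, 2.56 and 2.42 on casein and 2.47, 2.73, 2.27, 2.24 and 2.27 on conventional soybean. On the 3:1 diet it read 2.48, 2.65, 2.26, 2.32 and 2.15, and on the 1:1 diet 1.69, 2.33, 1.75, 2.03 and 2.17. These signals lie near the array medians, and the 1:1 rats did not overlap the casein rats. It fell by 0.62 (1.54-fold, SE 0.133, adjusted p = 0.0146) on the 1:1 diet, a call that ended without the arrays numbered 1 (adjusted p = 0.102). Whether the array separates this pseudogene from Cox6c was not tested. Both are among the 8 members called, and with the pair counted once 7 of 86 (8.14%) were called.

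Cox7c is a further small subunit of complex IV. It read 6.91, 6.95, 6.91, 6.78 and 6.68 on casein and 6.77, 6.80, 6.60, 6.96 and 6.67 on conventional soybean. On the 3:1 diet it read 6.51, 6.68, 6.64, 6.51 and 6.09, and on the 1:1 diet 5.88, 6.02, 6.37, 6.26 and 6.42. The 1:1 rats lay below all casein and all conventional-soybean rats. Cox7c fell by 0.66 (1.58-fold, SE 0.114, adjusted p = 0.0034) on the 1:1 diet relative to casein. Its difference was -0.36 on the 3:1 diet (adjusted p = 0.334) and -0.08 on conventional soybean (adjusted p = 0.744). Ndufa4, named for complex I but since assigned to complex IV, read 7.68, 7.77, 7.56, 7.66 and 7.70 on casein and 7.54, 7.54, 7.55, 7.64 and 7.48 on conventional soybean. The 3:1 rats gave 7.49, 7.54, 7.57, 7.43 and 7.13, and the 1:1 rats 7.07, 6.98, 7.35, 7.18 and 7.34. Again the 1:1 rats lay below all rats on casein and on conventional soybean. Ndufa4 fell by 0.49 (1.40-fold, SE 0.0854, adjusted p = 0.00345) on the 1:1 diet, and its differences were -0.24 on the 3:1 diet (adjusted p = 0.435) and -0.12 on conventional soybean (adjusted p = 0.475). The calls of Cox7b, Cox7b2, Cox6c, Cox7c and Ndufa4 for 1:1 against casein held in all 29 alternative settings.

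**Figure D2:**
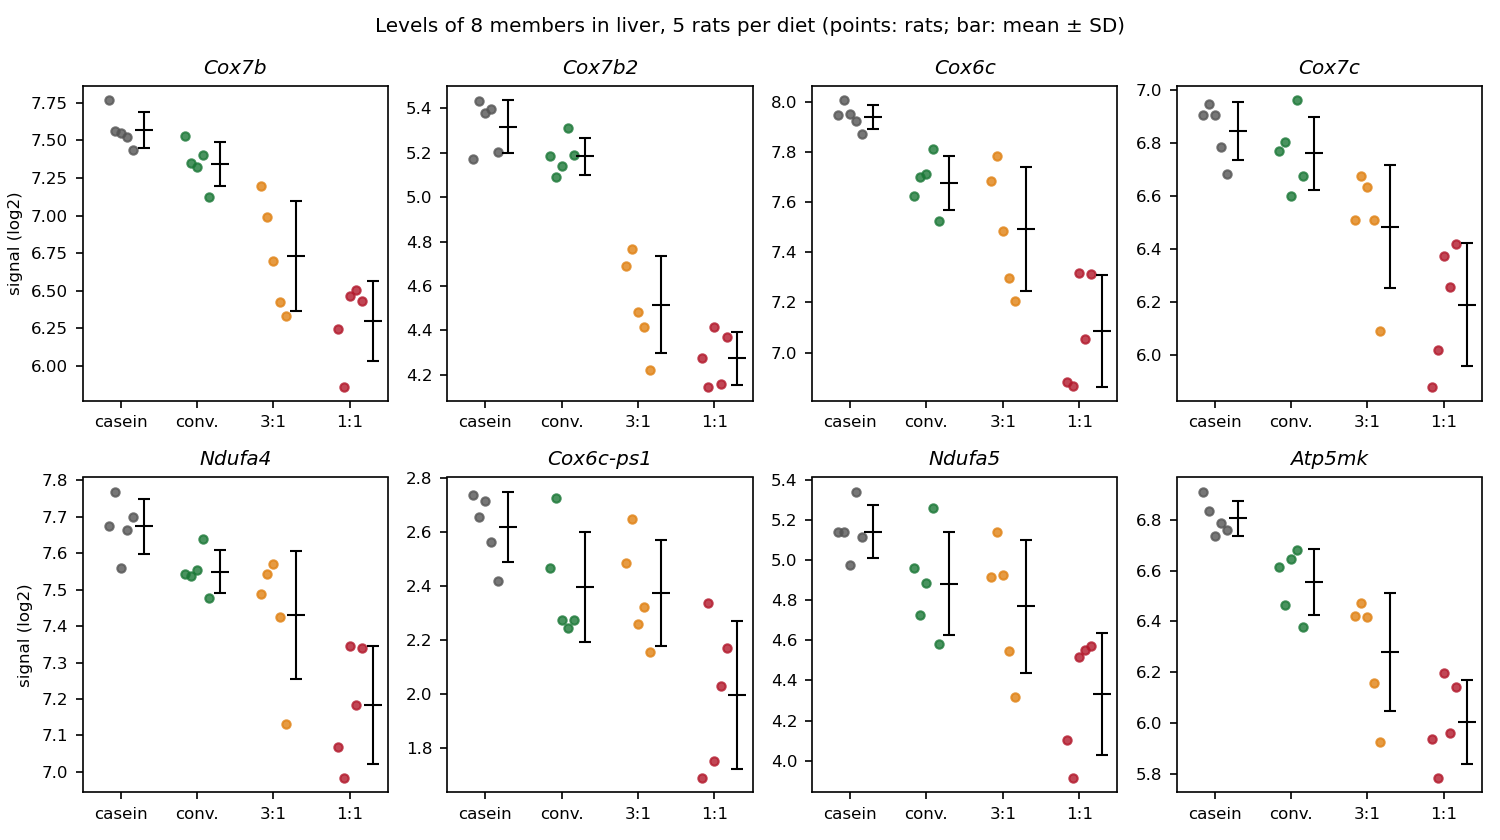
Signals (log2, y axis) of the 8 genes called for the 1:1 diet against casein, by diet (x axis; conv., conventional soybean). Points are rats, and bars show the mean ± SD, n = 5. In each of the 8 genes the means descend from casein through conventional soybean and 3:1 to 1:1; the y axes differ and do not start at 0.

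The other standing subunits of complex IV were not called on any diet. Cox4i1, the largest subunit of complex IV encoded in the nucleus, had means of 8.11 ± 0.103 on casein, 8.05 ± 0.132 on conventional soybean, 8.15 ± 0.0876 on the 3:1 diet and 8.20 ± 0.0858 on the 1:1 diet (SD, n = 5). Its difference on the 1:1 diet was 0.09 (SE 0.073, adjusted p = 0.585). Cox5a, which pairs with Cox4i1 in assembly, differed by 0.11 (SE 0.121, adjusted p = 0.714), from a dim probe set with a casein mean of 2.88 ± 0.174. Cox8a, a small subunit, had means of 8.21 ± 0.0753 in casein rats, 7.95 ± 0.0484 in conventional-soybean rats, 7.97 ± 0.143 in 3:1 rats and 8.04 ± 0.114 in 1:1 rats. Its rats on casein and on conventional soybean did not overlap, and the difference of -0.26 (SE 0.0724) had an adjusted p of 0.0665. It passed after quantile normalization (adjusted p = 0.0279) and with centring and scaling (0.0144). Among the tissue-restricted forms, Cox6b2, known from testis, had the highest difference of complex IV on the 1:1 diet, 0.36 (SE 0.203, adjusted p = 0.391). Cox8b, the heart and muscle form, differed by -0.03 (SE 0.191, adjusted p = 0.964).

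In complex V, 1 of 16 genes fell on the 1:1 diet. Atp5mk encodes a small membrane subunit, also called DAPIT, that helps ATP synthase dimers to associate. It read 6.91, 6.83, 6.74, 6.79 and 6.76 on casein and 6.62, 6.46, 6.65, 6.68 and 6.38 on conventional soybean. The values were 6.42, 6.47, 6.42, 6.16 and 5.93 on the 3:1 diet and 5.94, 5.78, 6.20, 5.96 and 6.14 on the 1:1 diet. Every soybean-fed rat lay below every casein-fed rat, and the 3:1 and 1:1 rats overlapped each other. Atp5mk fell by 0.80 (1.75-fold, SE 0.102, adjusted p = 0.000207) on the 1:1 diet, a call that held in all 29 alternative settings. On the 3:1 diet the difference was -0.53 (adjusted p = 0.0616), and on conventional soybean -0.25 (adjusted p = 0.216).

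The catalytic part of the ATP synthase was not called. The 5 subunits of the soluble F1 head had a median difference of -0.04 on the 1:1 diet, between -0.09 and 0.04. Atp5f1b, the catalytic beta subunit, had means of 8.71 ± 0.0732 on casein, 8.50 ± 0.0807 on conventional soybean, 8.58 ± 0.0892 on the 3:1 diet and 8.62 ± 0.113 on the 1:1 diet. Its conventional-soybean rats all lay below the casein rats, with a difference of -0.22 (SE 0.0664, adjusted p = 0.0991). Centring and scaling brought this to an adjusted p of 0.0395. Atp5f1a, the alpha subunit, differed by -0.07 on the 1:1 diet (SE 0.0693, adjusted p = 0.658). The 10 stalk and membrane subunits had a median difference of -0.13 on the 1:1 diet, with 8 below 0 and 1, Atp5mk, called. The 2 above 0 were Atp5mc3, which encodes the c subunit of the proton-driven ring, and Atp5pd of the peripheral stalk. They differed by 0.04 (SE 0.06, adjusted p = 0.795) and 0.02 (SE 0.0664, adjusted p = 0.918).

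Atp5if1, which encodes the protein that inhibits ATP hydrolysis by the synthase, was read by 3 probe sets. The brightest had means of 3.49 ± 0.186 on casein, 3.68 ± 0.257 on conventional soybean, 3.38 ± 0.255 on the 3:1 diet and 3.11 ± 0.241 on the 1:1 diet, and none of its differences from casein was called (-0.38 on the 1:1 diet, adjusted p = 0.174). A dimmer one, with a mean of 1.85 over all arrays, read 3.71 ± 0.926 on casein, 0.924 ± 0.903 on conventional soybean, 1.69 ± 1.03 on the 3:1 diet and 1.07 ± 1.43 on the 1:1 diet. Its signal fell by 2.78 (SE 0.605, adjusted p = 0.0246) on conventional soybean and by 2.64 (adjusted p = 0.0219) on the 1:1 diet. The third, with a mean of 1.41, differed by -0.37 on the 1:1 diet. All 3 were below casein on the 1:1 diet, with 1 of them called. They differed in sign on conventional soybean, at 0.18, -2.78 and -0.10 in the same order. The casein mean of the dimmer probe set lies above the array medians and its soybean means lie below them, while the third is below them on every diet.

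**Figure D3:**
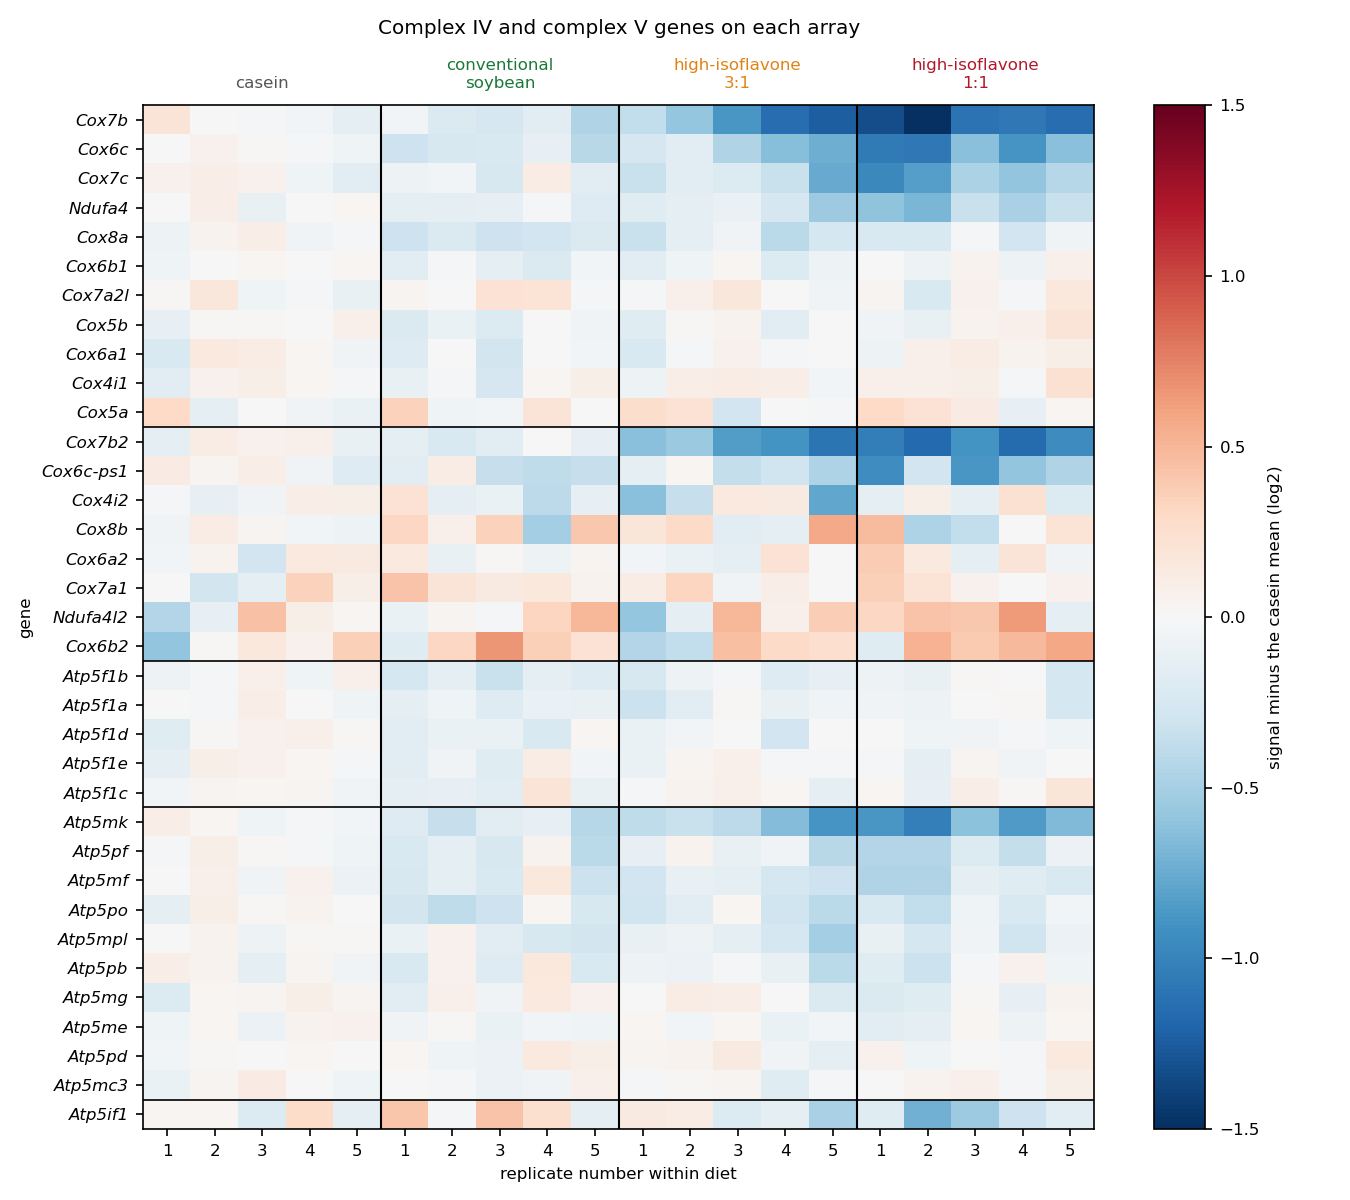
Signal minus the casein mean (log2, colour) of the complex IV and complex V genes (rows) on each of the 20 arrays (columns, replicate number within diet). Horizontal lines divide standing complex IV subunits, other complex IV forms, F1, stalk and membrane subunits, and the inhibitor. The rows of Cox7b, Cox6c, Cox7c, Cox7b2 and Atp5mk are blue across the 1:1 rats, while Cox4i1, Atp5f1a and Atp5mc3 stay near white.

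In complex I, 1 of 40 genes fell on the 1:1 diet. Ndufa5 encodes an accessory subunit of the peripheral arm, the part that extends into the matrix. It read 5.14, 5.14, 4.98, 5.34 and 5.11 on casein and 4.96, 4.72, 4.89, 5.26 and 4.58 on conventional soybean. The 3:1 rats gave 4.91, 5.14, 4.92, 4.55 and 4.32, and the 1:1 rats 4.10, 3.91, 4.52, 4.55 and 4.57. The 1:1 rats lay below every rat on casein and on conventional soybean. Ndufa5 fell by 0.81 (1.75-fold, SE 0.157, adjusted p = 0.00842) on the 1:1 diet, and the call ended without the arrays numbered 1 (adjusted p = 0.053). The differences were -0.37 on the 3:1 diet (adjusted p = 0.552) and -0.26 on conventional soybean (adjusted p = 0.412).

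The core subunits of complex I were not called, and their median difference on the 1:1 diet was -0.01. Ndufs1, which carries iron-sulfur clusters, differed by -0.03 (SE 0.125, adjusted p = 0.93), and Ndufv1, which binds NADH, by 0.06 (SE 0.0675, adjusted p = 0.723). Ndufs4, an accessory subunit whose loss causes complex I deficiency, had the lowest complex I difference on the 3:1 diet. It had means of 5.32 ± 0.133 on casein, 4.92 ± 0.205 on the 3:1 diet and 4.94 ± 0.217 on the 1:1 diet. The differences of -0.40 (SE 0.125, adjusted p = 0.334) and -0.38 (adjusted p = 0.121) did not pass the test. Ndufa11, a membrane-arm subunit, had the highest complex I difference on all 3 soybean diets, at 0.14, 0.14 and 0.15 on conventional, 3:1 and 1:1 (SE 0.0621, adjusted p = 0.256, 0.564 and 0.23). The conventional-soybean rats lay above the casein rats without overlap for this gene alone among the members, beside 3.1% of all genes. The 6 assembly factors had a median difference of -0.18 on the 1:1 diet, with 5 of 6 below 0 and none called. One of them, Ndufaf7, has a signal below the array medians and differed by -0.19 (SE 0.155, adjusted p = 0.594).

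No gene of complexes II and III was called on any diet. All 4 complex II genes, which encode succinate dehydrogenase, were below casein on each soybean diet, with medians of -0.05, -0.14 and -0.11 on conventional, 3:1 and 1:1. Sdha, the flavin-carrying subunit, had means of 6.05 ± 0.0976 on casein and 5.92 ± 0.181 on the 1:1 diet, a difference of -0.12 (SE 0.0986, adjusted p = 0.572). The iron-sulfur subunit Sdhb differed by -0.18 on the 3:1 diet (SE 0.0814, adjusted p = 0.593), and the membrane anchors Sdhc and Sdhd by -0.13 (adjusted p = 0.389) and -0.10 (adjusted p = 0.592) on the 1:1 diet. In complex III the median difference on the 1:1 diet was -0.03. Uqcrfs1, the Rieske iron-sulfur protein, differed by -0.04 (SE 0.0817, adjusted p = 0.862), and Cyc1, cytochrome c1, by -0.07 (SE 0.0796, adjusted p = 0.739). The lowest was the core protein Uqcrc2 at -0.25 (SE 0.146, adjusted p = 0.412), and the highest the small subunit Uqcr10 at 0.03 (SE 0.0704, adjusted p = 0.866).

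The order of the diets was shared by the genes that fell. In 8 of 8 the mean was highest on casein, then conventional soybean, then 3:1, and lowest on 1:1, though conventional soybean and 3:1 were not tested against each other. The difference on the 3:1 diet was between 39.2% (Cox6c-ps1) and 76.8% (Cox7b2) of that on the 1:1 diet, and the difference on conventional soybean between 12.7% (Cox7b2) and 35.7% (Cox6c-ps1). The rats that gave the lowest signals were counted too. Replicate 5 was the lowest of the 3:1 rats for 8 of 8 genes, replicate 2 the lowest of the 1:1 rats for 6 of 8, and replicate 5 the lowest of the conventional-soybean rats for 5 of 8. On both high-isoflavone diets the same arrays were most often the lowest for the 79 members called in no comparison. Of these, 36 (45.6%) had their lowest 3:1 signal in replicate 5, and 44 (55.7%) their lowest 1:1 signal in replicate 2. Over all genes these shares were 21.1% and 17.1%. On conventional soybean the arrays differed: 31 of 79 (39.2%) were lowest in replicate 3 and 18 (22.8%) in replicate 5, beside 20.0% and 16.1% of all genes. So it was on casein, where 46 of 79 (58.2%) were lowest in replicate 1, beside 29.2% of all genes. Of the 8 genes that fell, 1 was lowest there, 3 in replicate 3 and 4 in replicate 5. This is a description of genes read on the same arrays, and the 8 were picked by their difference on the 1:1 diet.

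Separation of the rats was also counted for all members. On the 1:1 diet 12 members (13.8%) lay wholly below casein, where 2.44% of all genes did, and none lay wholly above, where 2.63% did. The 4 not called were Atp5mf (-0.29, adjusted p = 0.0937), Atp5pf (-0.31, adjusted p = 0.102), Ndufb3 (-0.30, adjusted p = 0.203) and Ndufa13 (-0.19, adjusted p = 0.163), which are named after their values were seen. For the 3:1 diet 9 members (10.3%) lay wholly below casein, beside 0.795% of all genes, and none wholly above (1.48% of all genes). They were Cox7b, Cox7b2, Cox6c, Cox7c, Atp5mk, Atp5mf, Atp5mpl, Ndufb3 and Ndufs4. On conventional soybean 4 members (4.60%) did so, Cox6c, Atp5mk, Cox8a and Atp5f1b, beside 1.87% of all genes.

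The cultivars were compared at the same share of soybean, 1:1 against conventional. Lower signals with the high-isoflavone cultivar passed the test for 4 members, Cox7b, Cox7b2, Cox6c and Atp5mk. They were 4 of the 14 genes called lower (28.6%) among all genes measured, where 0.104% of all genes were called lower and 0% higher. In this count too, Cox7b and Cox7b2 may not be separate readings. Cox7b fell by 1.04 (2.06-fold, SE 0.143, adjusted p = 0.00279) and Cox7b2 by 0.91 (1.88-fold, SE 0.0977, adjusted p = 0.000168), and both calls held in all 29 alternative settings. Cox6c fell by 0.59 (SE 0.108, adjusted p = 0.0305) and Atp5mk by 0.55 (1.47-fold, SE 0.102, adjusted p = 0.031). The Cox6c call held in 16 of 29 alternative settings and the Atp5mk call in 15, with adjusted p up to 0.219 in both. Leaving out conventional replicate 1, 2, 3 or 4 ended the call of Cox6c (adjusted p 0.0525, 0.0913, 0.0963 and 0.118), as did leaving out 1:1 replicate 1, 2 or 4 (0.0924, 0.123 and 0.0792). The call of Atp5mk ended without the same conventional arrays (0.0784, 0.0606, 0.124 and 0.121), without the same 1:1 arrays (0.0924, 0.123 and 0.0881) and without casein replicate 2 (0.0502). With the beta-actin ratio as a covariate the adjusted p was 0.0556 for Cox6c and 0.0684 for Atp5mk.

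**Figure D4:**
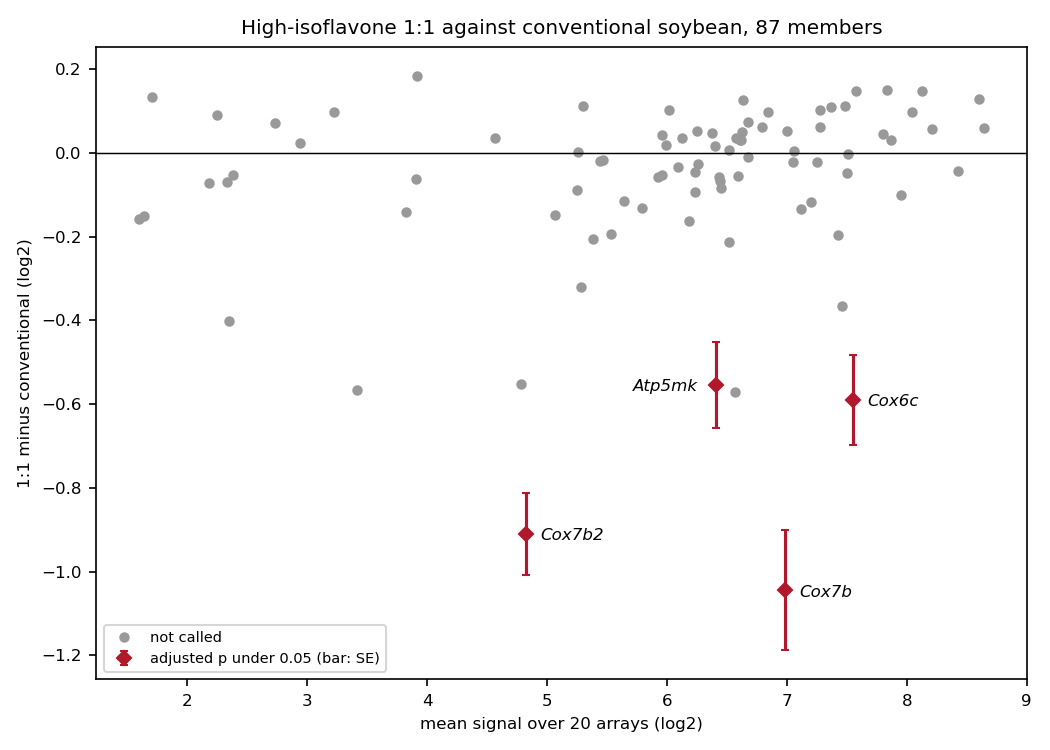
Difference of 1:1 high-isoflavone from conventional soybean (log2, y axis) against the mean signal over 20 arrays (log2, x axis), 1 point per gene for the 87 members. Red diamonds have an adjusted p under 0.05 in limma, with bars of 1 SE. Most points lie near 0, and the 4 diamonds lie between -1.04 and -0.55.

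None of the other members passed the test between cultivars. The median over the 87 was -0.02, beside -0.01 over all genes, and 75 of the 79 members called in no comparison lay within 0.2. Cox7c (-0.57, adjusted p = 0.0628) did not pass, though it did without 3:1 replicate 5 (0.0144), without 1:1 replicate 5 (0.0365) and without the dimmest probe sets (0.0491). Nor did Ndufa5 (-0.55, adjusted p = 0.347), Ndufa4 (-0.37, adjusted p = 0.15), Cox6c-ps1 (-0.40, adjusted p = 0.471) or the brightest probe set of Atp5if1 (-0.56, SE 0.144, adjusted p = 0.211). In all, 8 members (9.20%) lay wholly below conventional soybean on the 1:1 diet, beside 0.825% of all genes. They were the 4 called and Cox7c, Ndufa5, Ndufa4 and this probe set of Atp5if1, and the differences of Cox7c, Ndufa5 and Atp5if1 were as large as that of Atp5mk.

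Macrophage markers were also read beside the comparison of cultivars. All 9 measured were below conventional soybean on the 1:1 diet (median -0.25, 2 with an unadjusted p under 0.05). All 9 were also below the 3:1 diet (median -0.23, 3 with an unadjusted p under 0.05), with none called in either comparison. The shares of all genes at that level in either direction were 7.29% and 7.45%. Their part in the differences of the members was not tested.

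Between the shares of high-isoflavone soybean, 1:1 against 3:1, limma called no member, and 0% of all genes were called. At an unadjusted p under 0.05, 10 members (11.5%) were lower and 1 (1.15%) was higher, beside 3.60% and 3.85% of all genes, and over the whole array 2000 probe sets reached that level with none called. The genes that fell elsewhere had differences of -0.43 (Cox7b, SE 0.143, adjusted p = 0.583), -0.24 (Cox7b2, adjusted p = 0.636), -0.41 (Cox6c, adjusted p = 0.464) and -0.28 (Atp5mk, adjusted p = 0.6). No member of the 87 separated the 3:1 rats from the 1:1 rats. A difference that misses the threshold does not show that the shares act alike.

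Around the chain, genes for mitochondrial functions were described from lists of known function. Of 19 regulators of mitochondrial gene expression, all measured, Slirp alone was called, for the 1:1 diet against casein and against conventional soybean. Of all genes, 1.2% and 0.104% were called lower in these comparisons. Slirp encodes an RNA-binding partner of LRPPRC that protects mitochondrial messenger RNAs. It read 4.10, 4.16, 3.99, 4.28 and 3.93 on casein and 3.91, 4.01, 3.84, 4.00 and 3.80 on conventional soybean. The 3:1 rats gave 3.95, 3.67, 3.68, 3.25 and 2.96, and the 1:1 rats 2.65, 2.30, 3.14, 3.04 and 3.09. The 1:1 rats lay below all rats on casein and conventional soybean. Slirp fell by 1.25 (2.38-fold, SE 0.166, adjusted p = 0.000346) on the 1:1 diet relative to casein and by 1.06 (adjusted p = 0.00767) relative to conventional soybean. A second probe set of Slirp, only slightly dimmer over all arrays, read 3.80, 3.59, 3.48, 3.69 and 3.35 in the 1:1 rats. On that diet it differed by 0.29 (adjusted p = 0.355) from casein and by 0.05 (adjusted p = 0.975) from conventional soybean. It was lower in neither comparison, so both Slirp calls rest on 1 of 2 probe sets. The call against conventional soybean ended without the arrays numbered 1 (adjusted p = 0.0551).

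None of the 38 measured assembly factors of complexes II to V was called in any comparison in limma, though 6 (15.8%) had an unadjusted p under 0.05 for 1:1 against casein, beside 17.5% of all genes. Of 73 measured genes of the mitochondrial ribosome, 1 was called lower and 1 higher for 1:1 against casein. Of all genes, 1.2% were called lower and 1.33% higher there, so the list was near the share of all genes. Mrps18c fell by 0.65 (SE 0.132, adjusted p = 0.0111) on the 1:1 diet, a call that held in all 29 alternative settings. Mrpl14 rose by 0.43 (SE 0.115, adjusted p = 0.0492) there, but this held in 4 of 29 settings and was lost on dropping any of 17 of the 20 arrays (adjusted p up to 0.222 over all settings). Of 26 carriers and electron shuttles, 1 was called for 1:1 against casein, beside the same 1.2% of all genes called lower. This was the dicarboxylate carrier Slc25a10, which fell by 0.43 (SE 0.113, adjusted p = 0.047). Dropping any of 16 of the 20 arrays took Slc25a10 past the threshold (up to 0.107).

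In the TCA cycle and pyruvate dehydrogenase, 16 genes were measured, and calls went both ways: 2 fell and 2 rose on conventional soybean, and 1 fell and 2 rose on the 1:1 diet. Of all genes, 0.787% were called lower and 1.08% higher on conventional soybean, and 1.2% and 1.33% on the 1:1 diet. Pdhx, a component of pyruvate dehydrogenase, fell by 0.89 (SE 0.164, adjusted p = 0.00828) on conventional soybean. It fell by 0.74 (adjusted p = 0.0186) on the 1:1 diet, a call that ended without casein replicate 4 or 5 (0.0593 and 0.0572) or 1:1 replicate 2 (0.0588). Suclg2, of succinyl-CoA synthetase, rose by 0.43 (SE 0.083, adjusted p = 0.00808) on the 1:1 diet, though not with centring and scaling (0.111). Its rise of 0.34 on conventional soybean (adjusted p = 0.0388) was lost on dropping any of 8 arrays. Idh2, the mitochondrial isocitrate dehydrogenase, rose by 0.60 on conventional soybean (SE 0.132, adjusted p = 0.0256) and by 0.50 on the 1:1 diet (adjusted p = 0.0482), and these were lost on dropping any of 6 and 13 arrays. Ogdh, of the oxoglutarate dehydrogenase complex, fell by 0.45 (SE 0.0968, adjusted p = 0.0221) on conventional soybean, a call that ended without casein replicate 3 or 5 (0.0583 and 0.0628) or conventional replicate 4 (0.0518). No gene of these lists was called for the 3:1 diet against casein.

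Markers of other cells were read beside these results. The 9 measured macrophage markers were all below casein on the 1:1 diet, with a median of -0.34 and none called. Of these 9, 5 had an unadjusted p under 0.05 in limma, beside 17.5% of all genes in either direction. Clec4f, which marks Kupffer cells, the macrophages of the liver, had means of 6.17 on casein and 5.67 on the 1:1 diet. Their summed level was 7.63 to 7.93 in the 1:1 rats and 7.78 to 8.43 in the casein rats (log2), and their part in the decreases of the members was not tested. The median difference of the 9 hepatocyte markers on the 1:1 diet was 0.08, and none was called. They ranged from -0.44 to 0.19, with 4 of 9 below 0. The lowest was Apoa1, with means of 9.90 on casein and 9.46 on the 1:1 diet. An unadjusted p under 0.05 in limma was reached by 4 of the 9, beside 17.5% of all genes in either direction. In the 5 measured bile duct markers Epcam fell by 0.95 (adjusted p = 0.00251) on the 1:1 diet and by 0.71 (adjusted p = 0.0257) on conventional soybean, while the median of the list was 0.04 and 0.07. Krt19, a keratin of bile duct cells, lay the other way, with means of 1.27 on casein, 2.15 on the 1:1 diet and 2.28 on conventional soybean (differences 0.88 and 1.01, SE 0.299, adjusted p = 0.127 and 0.0868), and so did Spp1, the osteopontin gene (0.48 and 0.52, SE 0.199, adjusted p = 0.216 and 0.188). What these markers have to do with the members was not tested. No marker of endothelial cells, stellate cells, lymphocytes, muscle or red blood cells was called. Some of these lists also lay to 1 side of casein. All 9 measured lymphocyte markers were above it on conventional soybean (median 0.23), with 1 below on the 1:1 diet and 3 below on the 3:1 diet. All 7 measured muscle markers were above it on the 1:1 diet (median 0.232) and the 3:1 diet (0.235), with 2 below on conventional soybean. Their part in the differences of the members was not tested either. With the beta-actin ratio as a covariate, all 8 members called for 1:1 against casein stayed past the threshold.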

How the data were processed

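RNA from liver of 20 rats, 5 per diet, was read on an Affymetrix rat array that measures the 3′ end of messenger RNAs. The authors deposited 1 table of normalized log10 signals, made with the SuperNORM data service per the labels. How probes were summarized is not stated in the labels. The log10 base was inferred from the slope of the spike-in controls (0.997, SD 0.0242, 20 arrays). Values were multiplied by 3.3219 to give log2. Of 31099 probe sets, 57 controls and 3342 without values (2 in both) were left out, which left 27702. Of these, 19147 had 1 gene symbol in the platform annotation, 404 several and 8151 none. Limma 3.58.1 in R 4.3.3 fitted 1 mean per diet over all arrays (eBayes with a variance trend; two-sided tests). P-values of a comparison were adjusted by Benjamini and Hochberg's method over all 27702 tests, with a call below 0.05. The text takes SEs and adjusted p-values from there, except where it names an alternative. Arrays have no read depth, and their number limits the precision.

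The genes and lists were chosen with earlier results of these data known, and so were Cox7b, Cox7b2, Cox6c and Atp5mk as genes to describe singly. Other named genes were those called, those with the highest or lowest difference or mean level of each complex, and 9 subunits picked by name. The 9 were Ndufs1, Ndufv1, Sdha, Uqcrfs1, Cyc1, Cox4i1, Cox5a, Atp5f1a and Atp5f1b. From the other lists, up to 3 called genes each were named, and Ogdh beyond that. The fit was tested on simulated data. The alternatives were quantile normalization, centring and scaling, no variance trend, only the arrays compared, a replicate block, leaving out the dimmest 25% of probe sets, another probe set per gene, leaving out the 2 arrays with a higher floor, and leaving out each array. Leaving out the arrays numbered 1, whose deviations correlated across diets, and using the beta-actin ratio as a covariate were added after the data had been seen.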

Additional observations from a re-analysis of the deposited data

Results flagged for a closer look

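Of 132 groups of 5 rats looked at (33 named genes on 4 diets), 5 held a rat that stood apart from the other 4 by more than 0.71 of the range of its group. Chance gives about 1 in 20 groups. Replicate 5 on the 3:1 diet had a Cox7c signal of 6.09, with the nearest rat at 6.51. On conventional soybean, replicate 3 had a Cyc1 signal of 6.61 (nearest 6.77). Replicate 4 of the same diet stood out for Uqcr10 at 8.41 (nearest 8.19) and for Uqcrfs1 at 6.68 (nearest 6.59). For Cox6b2, replicate 1 on the 1:1 diet read 1.90, with the nearest rat at 2.47.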

How the results depend on the processing

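The number of members called for conventional soybean against casein was 0 and became 1 after quantile normalization, 2 with centring and scaling, 1 with the replicate block and 1 with the probe set of largest SD per gene. For 1:1 against casein, centring and scaling kept the 8 calls. It also called Cox8a, Atp5mf and Atp5pf lower (limma, adjusted p = 0.0449, 0.0373 and 0.0487). For 3:1 against casein the 2 calls became 1 with centring and scaling, with no variance trend and with only the compared arrays. For 1:1 against conventional soybean the 4 calls became 2 under the same 3 settings, and also 2 without the arrays numbered 1 and with the beta-actin covariate. Centring and scaling moved the median difference from casein from -0.07 to -0.20 on conventional soybean and from -0.07 to -0.21 on the 1:1 diet. The causes were not tested. Leaving out each array in turn gave 0 to 0 calls for conventional soybean against casein, 8 to 9 for 1:1 against casein, 1 to 2 for 3:1 against casein, 2 to 5 for 1:1 against conventional soybean and 0 to 0 for 1:1 against 3:1. The medians ranged from -0.0875 to -0.0360, -0.0927 to -0.0567, -0.104 to -0.0404, -0.0341 to 0.0120 and -0.0279 to 0.0268 in the same order. No named gene's difference reversed where it was called.

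Replicate numbers are shared between diets, but same-numbered rats deviated together only weakly: r ranged from -0.163 to 0.401 over 30 pairs, with a mean of 0.0671, and 7 of 20 arrays correlated best with their own number. The 6 pairs of number 1 stood apart, at 0.203 to 0.401 (mean 0.275), while the means of the other numbers lay between -0.0325 and 0.0685, which is why that number was left out. Without it, 1:1 against casein lost Ndufa5 (adjusted p = 0.0530) and Cox6c-ps1 (0.102), and 1:1 against conventional soybean lost Cox6c (0.177) and Atp5mk (0.192). With the replicate block, 591 probe sets were called for conventional soybean against casein (453 without it), 659 for 1:1 against casein (613), 23 for 3:1 against casein (11), 23 for 1:1 against conventional soybean (21) and 0 for 1:1 against 3:1 (0). The 1 member gained was Cox8a on conventional soybean (adjusted p = 0.0391), and Cox6c for 1:1 against conventional soybean had an adjusted p of 0.0696. The 5 rats per diet and the single tissue sample of each set the precision, and probe sets near the array medians, such as Cox6c-ps1, are the least certain.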
